A study of Mus musculus with 6 samples.

Results

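The ribosomal proteins of the cytosol are the protein parts of the 2 ribosomal subunits, and 78 of the 11079 genes tested in the series belong to them here: 47 of the large subunit and 31 of the small subunit. They were taken by symbol from a table of 24312 rows, as every tested row named Rpl or Rps with a number and at most 1 ending letter (a, l, x or y), or named Rplp0, Rplp1, Rplp2 or Rpsa. In all, 79 symbols met the pattern, and the one left out, Rpl10l, was listed at 0 in both genotypes and was not tested. The choice rests on symbols and on the table's own filter for testing, which 78 of the 79 passed. It was made with earlier results of these data known. Ribosomal proteins under other names (such as Fau, Gnb2l1 and Rps3a1), rows of pseudogenes and rows that merge more than 1 gene (Rps27 with Rps27rt, Rpl34 with Rpl34-ps1) are given apart.

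The cells were myeloid-derived suppressor cells (MDSCs), a mixture of immature granulocytes and monocytes able to suppress T cells, grown from mouse femur marrow in 40 ng/mL GM-CSF and 40 ng/mL IL-6 over 7 days. The marrow came from Pim1-/- mice, which lack the cytokine-induced serine/threonine kinase Pim1, or from C57BL/6 wild-type mice; the label of strain is C57BL/6 for every sample. Each genotype had 3 libraries of CD11b+ Gr1+ cells, described as biological replicates and made by Smart-seq2, a method that makes full-length cDNA of polyadenylated RNA. The labels do not give the deleted part of Pim1, the sex or age of the mice, or whether wild-type littermates were used.

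The authors' deposited table holds 1 pooled value per gene and genotype, so every level below is such a value in FPKM (fragments scaled by transcript length and by the size of the library), and no spread between libraries can be set beside it. A log2 fold change is Pim1 knockout over wild type, and the error printed with it is the ratio of that fold change to the deposited test statistic. A gene is said to rise or fall where the deposited adjusted p is under 0.05, which held for 13.5% of all tested genes, 6.73% lower and 6.79% higher in Pim1 knockout. Pim1 itself stood at 22.7 FPKM in Pim1 knockout and 90.2 FPKM in wild type, a log2 fold change of -1.99 (adjusted p = 0.000831 in the authors' deposited table). No smaller adjusted p occurs there. Of the label's markers, Itgam, which encodes CD11b, stood at 151.8 FPKM in Pim1 knockout and 138.8 FPKM in wild type, and Ly6c2, one of the genes behind Gr1 staining, at 997.1 FPKM in Pim1 knockout and 392.4 FPKM in wild type.

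A ribosome is assembled from rRNA and one copy each of most of these proteins, in a small subunit that reads the mRNA and a large subunit that joins amino acids, and the genes are transcribed at high and similar levels. In vertebrates their mRNAs begin with a run of pyrimidines that opens with a C, the 5′ terminal oligopyrimidine (TOP) tract. Through this tract, the kinase mTOR and the RNA-binding protein Larp1 set how well the mRNAs are translated and how long they last. Several translation factors and noncoding hosts of small nucleolar RNAs carry the same start.

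The tracts are shown here because they are the sequence feature the members are known to share and the symbols did not choose them. RefSeq promoters of the GRCm38.p6 build were given for 57 of the 78 genes. A pyrimidine tract, a run of at least 8 C or T on the coding strand that opens with C, was searched within 50 bases of the RefSeq start. It was found for 49 of these 57 genes (86.0%), against 32.0% of all 27025 genes with a promoter in the table and 31.7% of the 8447 tested ones. Below, 30 bases around the tract are given 5′ to 3′ on the coding strand, with the tract in capitals, first for members that fell, each with its position in GRCm38.p6.
Rps15a, chr7:118116143-118116172, minus strand: gcccggcccaCTCTCTTTCTgccatcttcc
Rpl5, chr5:107900498-107900527, plus strand: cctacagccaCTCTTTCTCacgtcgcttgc
Rps7, chr12:28635910-28635939, minus strand: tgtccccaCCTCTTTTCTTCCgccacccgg
Rpl10, chrX:74270836-74270865, plus strand: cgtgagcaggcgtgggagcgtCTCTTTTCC
Rpl36a, chrX:134585673-134585702, plus strand: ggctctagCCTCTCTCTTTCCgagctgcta

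The next sequences belong to members of both subunits that did not pass the threshold. Only members in which a tract was found were printed, here and above, so its presence in each was set by the choice.
Rps10, chr17:27635226-27635255, minus strand: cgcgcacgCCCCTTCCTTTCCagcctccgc
Rpl19, chr11:98026944-98026973, plus strand: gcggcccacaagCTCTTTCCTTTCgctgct
Rpl26, chr11:68901509-68901538, plus strand: cccaacctCCTCTCCCCTTTCgctccgaga
Rps2, chr17:24720083-24720112, plus strand: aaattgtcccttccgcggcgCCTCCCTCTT
Rpl18, chr7:45718062-45718091, plus strand: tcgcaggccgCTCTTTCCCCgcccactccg

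The last ones belong to the 2 paralogs with the highest fold changes of the 78 members, out of 4 above 0, and to 2 translation factors that fell.
Rps27l, chr9:66946054-66946083, plus strand: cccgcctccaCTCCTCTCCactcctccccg
Rpl39l, chr16:10170192-10170221, plus strand: acacccactgCCTCTCCCTagctcccaggc
Eef1a1, chr9:78481710-78481739, minus strand: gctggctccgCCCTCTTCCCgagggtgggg
Eif3f, chr7:108934404-108934433, plus strand: ttctaggCTCTCTCTCTTTCTCggcaagat

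The tract did not sort the members by their change. It was present in 19 of the 22 members with a promoter that fell (86.4%) and in 27 of the 32 that were not called, the paralogs ending in l aside (84.4%). The median log2 fold change was -0.33 over 46 members with a tract and -0.29 over 8 members without one. Where a promoter held more than 1 such run, the longest was kept, and runs were cut at the edge of the searched window. Tracts so chosen were 8 to 20 bases long with a median of 11. Of the 49, 16 began within 10 bases of the RefSeq start, which need not be the start used in these cells. The printed ones began from base -49 (Rpl26) to base 42 (Rpl10) relative to that start, so not every one is a tract at the start itself. The letters CTCTTTC, which lie within such tracts in several members, were found near the start on the coding strand in 12 of 57 genes (21.1%), against 1.62% of all promoters and 1.67% of the tested genes. CCGGAAG, the letters of an ETS factor motif, stood on either strand from 250 bases before to 50 after the start in 24 of 57 genes (42.1%), against 9.93% of all promoters and 21.7% of the tested genes. It was found in 6 of the 22 members that fell and in 16 of the 32 that were not called. AAGATGGC, the letters of the YY1 motif, was found in 4 of 57 genes (7.02%), against 3.19% of all promoters and 5.87% of the tested genes, a share close to that of the members.

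Ribosomal protein mRNAs were lower in Pim1 knockout MDSCs by a small amount that ran through both subunits. Of the 78 genes, 27 fell and 1 rose, or 34.6% lower against 6.73% of all tested genes. In direction alone, 74 of the 78 were below 0, against 47.9% of all tested genes, and the 4 above 0 were all paralogs ending in l; after quantile normalization 67 of the 78 were below 0. The median log2 fold change was -0.32 over the 78 genes and 0.01 over all tested genes. At an unadjusted p under 0.05, 46 members were lower and 2 higher, against 12.15% lower and 11.96% higher of all tested genes. The count depends on the threshold: 10 members fell at an adjusted p under 0.01, against 4.13% of all tested genes, and 3 with a change of at least 1.5-fold, against 4.15%. When the deposited test statistic is taken as a normal deviate and adjusted in the same way, 0 members were called in either direction, against 1.47% of all tested genes lower and 1.85% higher. With that reading 11 members were lower and 1 higher at an unadjusted p under 0.05, against 4.25% of all tested genes lower. The size and direction of the shift are the same in both readings, and only the error set against it differs.

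**Figure D1:**
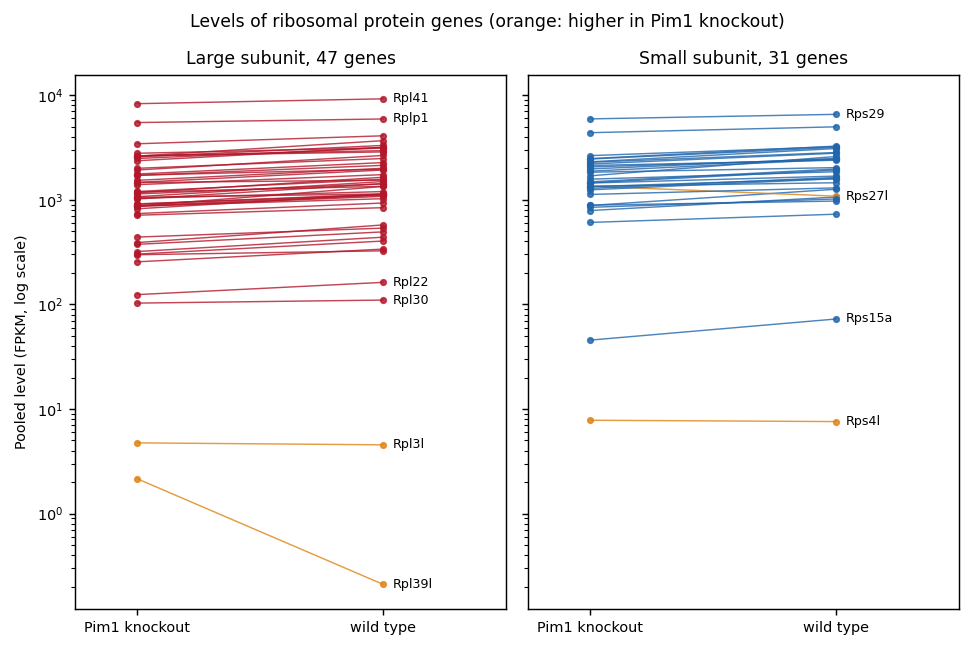
Pooled level of each ribosomal protein gene in Pim1 knockout (left) and wild type (right), in FPKM on a log scale, with the 47 genes of the large subunit in the left panel and the 31 of the small subunit in the right one. Each line is 1 gene with 1 pooled value per genotype; nearly every line slopes up towards wild type, and the 4 orange lines, all paralogs ending in l, slope the other way.

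The shift was seen in several functional regions of the large subunit. Of its 47 genes, 17 fell and 1 rose, and the median log2 fold change was -0.32. Rpl17, a protein that lines the tunnel through which the new chain leaves, had 872.1 FPKM in Pim1 knockout and 1341 FPKM in wild type, a log2 fold change of -0.62 (error 0.24, adjusted p = 0.000831 in the authors' deposited table). Rpl39, a small protein of the same tunnel, stood at 2359 FPKM in Pim1 knockout and 3177 FPKM in wild type (log2 fold change -0.43, adjusted p = 0.0152 in the authors' deposited table). Rpl31, which sits at the tunnel's mouth, fell to 319.8 FPKM in Pim1 knockout, against 438.8 FPKM in wild type. Rpl4, whose loop also lines the tunnel, was at 869.6 FPKM in Pim1 knockout and 1024 FPKM in wild type and did not pass (adjusted p = 0.296 in the authors' deposited table). Tunnel proteins were thus on both sides of the threshold, with every one of the 4 lower in Pim1 knockout.

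Rpl5 and Rpl11 are built into the ribosome together with the smallest rRNA of the large subunit, and the free complex of these parts is known to bind Mdm2, the ubiquitin ligase of p53. Rpl5 was at 389.6 FPKM in Pim1 knockout and 574.8 FPKM in wild type, a log2 fold change of -0.56 (error 0.24, adjusted p = 0.000831 in the authors' deposited table). Rpl11 was at 1997 FPKM in Pim1 knockout and 2479 FPKM in wild type (log2 fold change -0.31, adjusted p = 0.112 in the authors' deposited table). With errors of 0.24 and 0.23, the ranges of 1 error around the fold changes of these partners overlap.

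Near the catalytic centre, Rpl10, a protein added in the last steps of assembly, had 2612 FPKM in Pim1 knockout and 3674 FPKM in wild type, a log2 fold change of -0.49 (error 0.25, adjusted p = 0.00773 in the authors' deposited table). Rpl8, which reaches into the same centre, was almost level at 1055 FPKM in Pim1 knockout and 1137 FPKM in wild type (log2 fold change -0.11, adjusted p = 0.719 in the authors' deposited table). Rpl36a, which contacts the tRNA about to leave, fell to 1016 FPKM in Pim1 knockout, against 1426 FPKM in wild type (adjusted p = 0.00345 in the authors' deposited table). Rpl10a, the protein of the mobile stalk on the exit side, fell to 819.6 FPKM in Pim1 knockout, against 1133 FPKM in wild type. Rpl23, which lies at the face that meets the small subunit, fell to 1069 FPKM in Pim1 knockout, against 1494 FPKM in wild type, and Rpl24, which also bridges the subunits, to 1200 FPKM, against 1569 FPKM in wild type. Members that take part in the same step of translation therefore ranged from some of the larger falls to some of the smallest differences.

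Further members of the large subunit fell outside these groups. Rpl7 fell to 1168 FPKM in Pim1 knockout, against 1641 FPKM in wild type. Rpl35a fell to 1924 FPKM in Pim1 knockout, against 2652 FPKM in wild type (adjusted p = 0.0101 in the authors' deposited table). Among less abundant mRNAs, Rpl37 fell to 302.3 FPKM in Pim1 knockout, against 403.3 FPKM in wild type, Rpl14 to 255.0 FPKM, against 337.6 FPKM in wild type, and Rpl21 to 374.7 FPKM, against 493.3 FPKM in wild type. Rpl9 fell to 1532 FPKM in Pim1 knockout, against 1999 FPKM in wild type, with the adjusted p nearest to the threshold among members of this subunit that passed it (0.0361 in the authors' deposited table). Rpl22, a protein that mouse cells can lose and still make ribosomes, fell to 123.9 FPKM in Pim1 knockout, against 162.4 FPKM in wild type.

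The stalk that recruits elongation factors consists of Rplp0 and copies of Rplp1 and Rplp2. Of its 3 genes 1 fell, against 6.73% of all tested genes. Rplp2 had 1464 FPKM in Pim1 knockout and 1926 FPKM in wild type (log2 fold change -0.40, adjusted p = 0.0241 in the authors' deposited table). Rplp0 had 1709 FPKM in Pim1 knockout and 2133 FPKM in wild type (log2 fold change -0.32, adjusted p = 0.133 in the authors' deposited table). Rplp1, among the most abundant mRNAs of the family, had 5468.5 FPKM in Pim1 knockout and 5919 FPKM in wild type (log2 fold change -0.11, adjusted p = 0.708 in the authors' deposited table). By fold change, the order of the 3 genes is thus the reverse of their order by level, with errors from 0.23 to 0.25 beside each.

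Among the large subunit genes with the smallest differences, Rpl18 had 1459 FPKM in Pim1 knockout and 1539 FPKM in wild type, a log2 fold change of -0.08. Rpl41, the shortest of the ribosomal proteins and the most abundant mRNA of the family per length, had 8283 FPKM in Pim1 knockout and 9221 FPKM in wild type (log2 fold change -0.15, adjusted p = 0.581 in the authors' deposited table). Rpl19 had 2626 FPKM in Pim1 knockout and 2866 FPKM in wild type. Rpl35, named for its high level, had 3428 FPKM in Pim1 knockout and 4086 FPKM in wild type. Its log2 fold change of -0.25 was further from 0 than those of Rpl18, Rpl41 and Rpl19. Rpl30 and Rpl26 were too uncertain to place: their log2 fold changes of -0.10 and -0.12 have errors of 1.18 and 0.69, against 0.23 to 0.25 for nearly all other members.

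In the small subunit 10 of 31 genes fell and 0 rose, with a median log2 fold change of -0.29; at an unadjusted p under 0.05 in the authors' deposited table, 16 were lower and 1 was higher. Rps15a, a protein bound early to the central domain of the rRNA, had the largest fall of any member, with 45.5 FPKM in Pim1 knockout and 72.5 FPKM in wild type, a log2 fold change of -0.67 (error 0.23, adjusted p = 0.000831 in the authors' deposited table). Its level is far below that of the other small subunit genes except Rps4l, and 2 rows of Rps15a pseudogenes stand in the table at comparable levels. Whether reads were divided among these copies was not tested. Rps15a-ps4 had 17.8 FPKM in Pim1 knockout and 31.1 FPKM in wild type, and Rps15a-ps6 had 15.9 FPKM in Pim1 knockout and 25.9 FPKM in wild type, of which the first passed the threshold (adjusted p = 0.000831 in the authors' deposited table).

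Rps4x, the X-linked gene whose human counterpart has a partner on the Y chromosome, had 1693 FPKM in Pim1 knockout and 2594 FPKM in wild type, a log2 fold change of -0.62 (error 0.24, adjusted p = 0.000831 in the authors' deposited table). Rps7, needed early in subunit assembly, had 881.7 FPKM in Pim1 knockout and 1261 FPKM in wild type (log2 fold change -0.52, adjusted p = 0.00399 in the authors' deposited table). Rps23, a protein of the decoding centre, fell to 788.7 FPKM in Pim1 knockout, against 1062 FPKM in wild type. Rps9, which shapes the entry of the mRNA channel and the accuracy of decoding, fell to 2473 FPKM in Pim1 knockout, against 3258 FPKM in wild type. Rps23 thus fell by 25.7% and Rps9 fell by 24.1%.

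In the head of the small subunit, Rps18 fell to 2449 FPKM in Pim1 knockout, against 3164 FPKM in wild type, and Rps12 to 1876 FPKM, against 2433 FPKM in wild type. Of these, Rps12 passed the threshold by the least of all members, at adjusted p = 0.0480 in the authors' deposited table. Just outside it stood Rps21 with 1244 FPKM in Pim1 knockout and 1590 FPKM in wild type (adjusted p = 0.0521 in the authors' deposited table), Rpl23a (0.0569) and Rpl32 (0.0582). The log2 fold changes on the 2 sides of the threshold, -0.38 for Rps12 and -0.35 for Rps21, differ by far less than their errors. Rps27a, made as a fusion with ubiquitin, fell to 2304 FPKM in Pim1 knockout, against 3089 FPKM in wild type.

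The most abundant small subunit mRNAs were on both sides of the threshold. Rps29 had 5926 FPKM in Pim1 knockout and 6553 FPKM in wild type, and Rps28 had 4374 FPKM in Pim1 knockout and 4979 FPKM in wild type (adjusted p = 0.582 and 0.427 in the authors' deposited table). Rps14 had 2641 FPKM in Pim1 knockout and 3218 FPKM in wild type (log2 fold change -0.29), close to the median of the subunit. Next by level came Rps9 and Rps18, which fell. The smallest negative log2 fold changes of the subunit were those of the less abundant Rps2 and Rpsa: Rps2 had 1345 FPKM in Pim1 knockout and 1454 FPKM in wild type, and Rpsa, also known as a laminin receptor, had 886.9 FPKM in Pim1 knockout and 971.9 FPKM in wild type, log2 fold changes of -0.11 and -0.13.

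**Figure D2:**
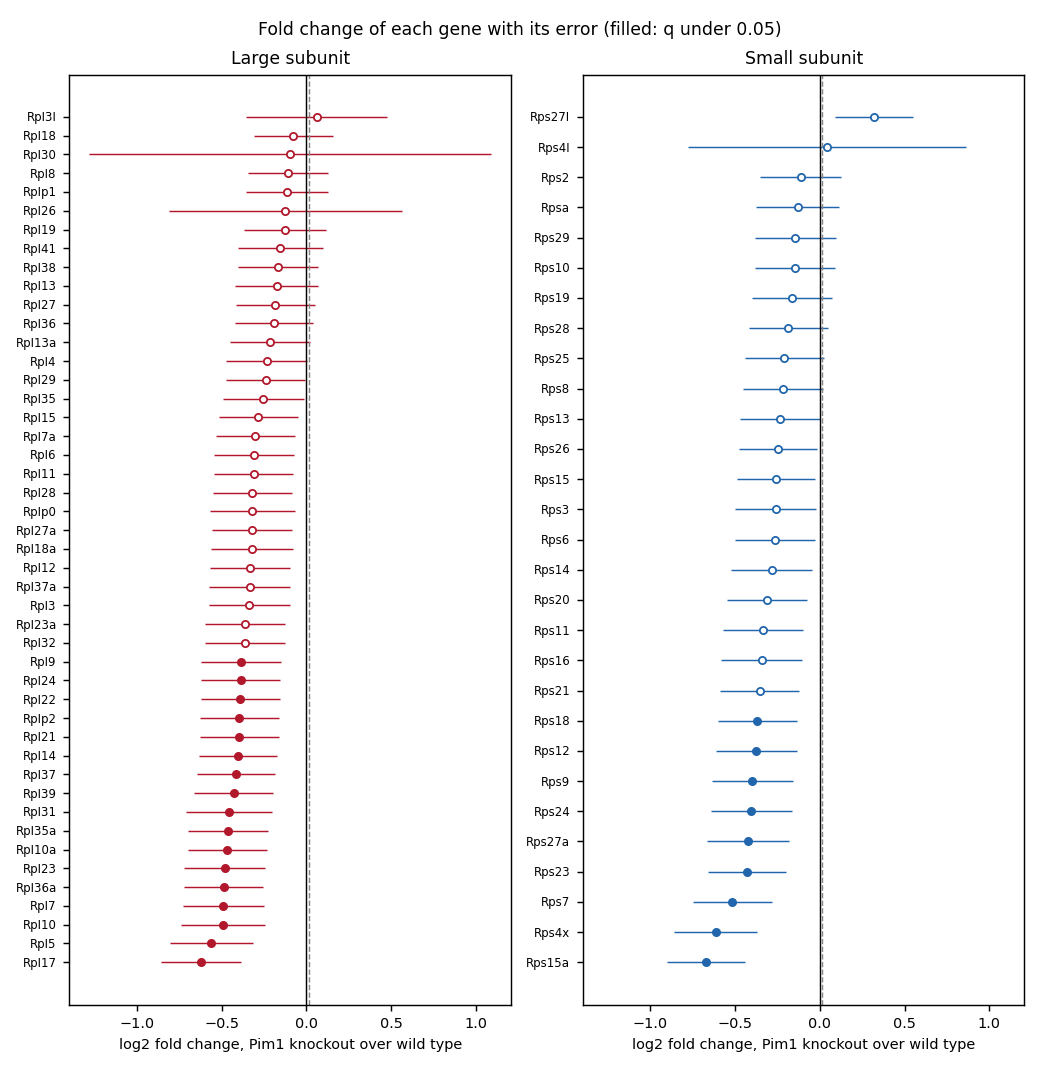
Log2 fold change of each member, Pim1 knockout over wild type, with the error derived from the deposited test statistic (bars), for the large and the small subunit; filled points have a deposited q under 0.05, and the dashed line is the median of all tested genes, 0.01. Rpl39l, at 3.36, is left out to keep the scale, 2 small subunit genes are not drawn, and the points other than the paralogs ending in l run from -0.67 to -0.08 without a break between filled and open ones.

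The medians of the subunits differed by -0.04 on the log2 scale (large minus small), and by less without the paralogs ending in l, at -0.32 for 45 large subunit genes and -0.31 for 29 small subunit genes. After quantile normalization the medians were -0.25 for the large and -0.17 for the small subunit, a difference of -0.08. Summed over genes, the large subunit had 69233 FPKM in Pim1 knockout and 84478 FPKM in wild type, and the small subunit had 53891 FPKM in Pim1 knockout and 65454 FPKM in wild type. The ratio of the large to the small sum was 1.28 in Pim1 knockout and 1.29 in wild type. With 1 pooled value per genotype neither comparison has a test, and the differences of medians are smaller than the median error of a single member.

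Together the 78 genes held 16.5% of the summed FPKM in Pim1 knockout and 19.2% in wild type. The sums leave out 6 rows with a failed estimate, among them Spp1, listed at 9022 FPKM in Pim1 knockout and 0 in wild type. The members summed to 123124 FPKM in Pim1 knockout and 149932 FPKM in wild type, a difference of -17.9%. The sum of all other rows without a failed estimate was 622687 FPKM in Pim1 knockout and 630739 FPKM in wild type, a difference of -1.28%. Since FPKM are shares of the RNA sequenced, a lower ribosomal protein mRNA content per cell and a different mix of cells cannot be told apart here, nor can fewer cells of a type and less RNA per cell.

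**Figure D3:**
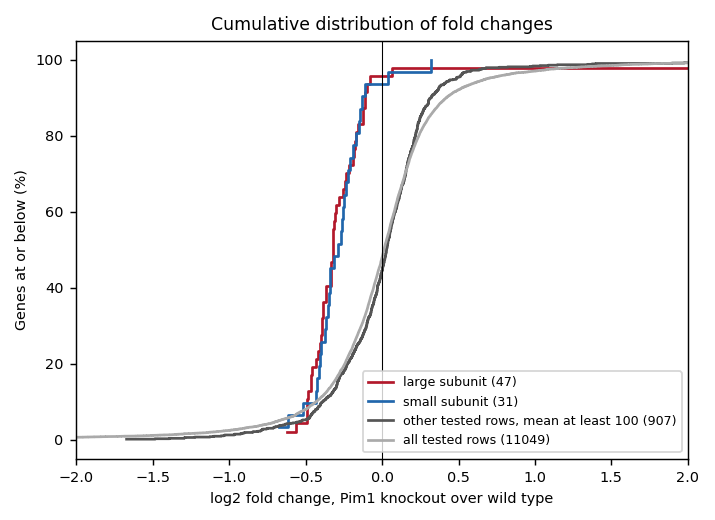
Cumulative share of genes at or below a log2 fold change, Pim1 knockout over wild type, for the large subunit (47), the small subunit (31), other tested genes with a mean of at least 100 FPKM (907) and all tested genes with a finite value (11049). At 50% the 2 subunit curves lie close together and left of both other curves, which cross 50% near 0. In the left tail the other curves reach further, to -1.67 for the abundant genes, against -0.67 for the lowest member. Rpl39l lies beyond the right edge.

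The spread among the members was no larger than the error of 1 member. Without the paralogs ending in l, all 74 genes were below 0, from -0.67 for Rps15a to -0.08 for Rpl18, with the middle of the distribution between -0.40 and -0.22. The SD of the 74 log2 fold changes was 0.13, against a median error of 0.24 from the test statistic and of 0.135 from the deposited p-values. The lowest and the highest differ by -0.59 with a combined error of 0.33 from the test statistic.

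Members of high and of moderate abundance had like medians. Of the 55 genes with a mean of at least 1000 FPKM, 18 fell, and of the 19 genes from 100 to under 1000 FPKM, 8 fell, with medians of -0.32 and -0.33. Across the 74 genes, which share the same pooled libraries, Spearman's rho with the log2 fold change was 0.16 for the log2 mean level and -0.01 for coding length. The coding sequences are short, with a median of 468 bases and a range of 138 to 1257, against a median of 1326 for all tested genes with a known one. Other tested genes with a mean of at least 100 FPKM had a median of 0.03 over 907 genes, with 10.5% lower, and those of them with a coding sequence no longer than the longest member's had a median of 0.04 over 730 genes, with 8.77% lower. Both of these shares lower are above the 6.73% of all tested genes and below the 34.6% of the members.

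Proteins found in all domains of life and those added in archaea and eukaryotes had like medians. Of 33 universally conserved members 12 fell, and of 41 others 15 fell, against 6.73% of all tested genes. Their medians were -0.33 and -0.32. Members lie on 18 chromosomes, and on each of them the median log2 fold change was below 0.

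Mutations in several of these genes cause Diamond-Blackfan anemia in humans, in which red cell precursors fail. Of 12 such genes with a tested row, 4 fell (Rpl5, Rps7, Rps24 and Rpl35a) and 0 rose, against 6.73% of all tested genes that fell. Their median was -0.30. At an unadjusted p under 0.05 in the authors' deposited table, 7 were lower and 0 higher, against 12.15% of all tested genes lower. Rps19, the gene most often affected in patients, had 2125 FPKM in Pim1 knockout and 2386 FPKM in wild type (log2 fold change -0.17, adjusted p = 0.502 in the authors' deposited table). Rps24 had 1452 FPKM in Pim1 knockout and 1922 FPKM in wild type (log2 fold change -0.40, adjusted p = 0.0254 in the authors' deposited table). Rps26 had 2057 FPKM in Pim1 knockout and 2441 FPKM in wild type, and Rpl15 had 439.8 FPKM in Pim1 knockout and 535.8 FPKM in wild type, neither of which passed. Rps27 has only a row merged with its retrocopy Rps27rt, with 2743 FPKM in Pim1 knockout and 3088 FPKM in wild type (adjusted p = 0.713 in the authors' deposited table). Disease genes thus shifted by about as much as the family as a whole.

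The X chromosome holds 4 members, Rps4x, Rpl10, Rpl36a and Rpl39, and all 4 fell, with a median log2 fold change of -0.49. Of all 332 tested genes on the X chromosome 9.34% were lower, with a median of -0.02. Of Y-linked genes, Eif2s3y had 0.0191 FPKM in Pim1 knockout and 6.79 FPKM in wild type, and Ddx3y had 0.0103 FPKM in Pim1 knockout and 2.56 FPKM in wild type (adjusted p = 0.537 and 0.385 in the authors' deposited table). With the test statistic taken as a normal deviate both were called lower, against 1.47% of all tested genes. Uty and Kdm5d were listed at 0 FPKM in Pim1 knockout, against 0.462 and 0.454 FPKM in wild type, and were not tested. Xist, the RNA of the inactive X chromosome, had 7.21 FPKM in Pim1 knockout and 5.21 FPKM in wild type, and was thus measured in both pools. It rose in the authors' deposited table (adjusted p = 0.0262) and was not called with the test statistic taken as a normal deviate. A difference in sex between the genotypes and loss of Pim1 cannot be told apart for these 4 genes or the other members.

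Within 10 Mb of Pim1 on chromosome 17 lie 6 members, in a segment that can come from another strain in a knockout made in embryonic stem cells, which was not tested here. Rpl10a and Rps18 fell, and the other 4 did not pass. Rps10 had 1832 FPKM in Pim1 knockout and 2030 FPKM in wild type (log2 fold change -0.15). Rps2 and Rps28 are given above, and Rpl3l below. Of all 318 tested genes in this segment 9.43% were lower and 11% higher. Without the members on the X chromosome or near Pim1, 21 of 68 members fell, against 6.73% of all tested genes.

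Paralogs ending in l are copies whose use differs between tissues, and the 4 that are members were above 0. Rpl36al, which the symbol pattern leaves out, was not, with a log2 fold change of -0.04. Rpl39l, best known from male germ cells, was the 1 member that rose, from a trace level: it had 2.16 FPKM in Pim1 knockout and 0.210 FPKM in wild type, a log2 fold change of 3.36 (error 1.10, adjusted p = 0.0203 in the authors' deposited table). Even in Pim1 knockout it made up 0.0913% of the FPKM of the pair with Rpl39. Rps27l, which p53 induces in human cells, was the abundant paralog, with 1350 FPKM in Pim1 knockout and 1082 FPKM in wild type, a log2 fold change of 0.32 (error 0.23, adjusted p = 0.0965 in the authors' deposited table). It made up 33.0% of the pair with the merged Rps27 row in Pim1 knockout and 25.9% in wild type. These shares leave out a separate row of Rps27rt, with 1711.5 FPKM in Pim1 knockout and 2635 FPKM in wild type. The log2 fold change of that row was -0.62 (error 0.46, adjusted p = 0.105 in the authors' deposited table). With its reads counted, the shares of Rps27l would be smaller in both genotypes. Rpl3l, the paralog of heart and skeletal muscle, had 4.75 FPKM in Pim1 knockout and 4.55 FPKM in wild type, and Rps4l had 7.81 FPKM in Pim1 knockout and 7.58 FPKM in wild type, neither past the threshold (adjusted p = 0.929 and 0.979 in the authors' deposited table).

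Other paralogs, which the symbol pattern leaves out, went both ways. Rpl22l1, which takes the place of Rpl22 when that protein is missing, fell to 172.1 FPKM in Pim1 knockout, against 274.9 FPKM in wild type (log2 fold change -0.68, adjusted p = 0.000831 in the authors' deposited table). Its difference from Rpl22 was -0.29 on the log2 scale with a combined error of 0.34. Rpl36al, which is nearly identical in protein to Rpl36a, had 1102 FPKM in Pim1 knockout and 1129 FPKM in wild type, 0.45 above Rpl36a with a combined error of 0.33. Rpl7l1, a paralog of Rpl7 with a role in ribosome assembly, had 43.5 FPKM in Pim1 knockout and 34.4 FPKM in wild type (adjusted p = 0.0818 in the authors' deposited table), 0.83 above Rpl7 with a combined error of 0.34. Reads that fit more than 1 copy may have been divided between such pairs, so their values are uncertain.

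Ribosomal proteins under other names were lower in part. At an unadjusted p under 0.05 in the authors' deposited table, 5 of 8 tested rows were lower and 1 higher, against 12.15% and 11.96% of all tested genes. By the adjusted p, 3 fell and 0 rose, against 6.73% and 6.79% of all tested genes, with a median of -0.35. Besides Rpl22l1 these were Gnb2l1, which encodes the scaffold Rack1 on the small subunit, with 613.7 FPKM in Pim1 knockout and 810.4 FPKM in wild type, and Rps3a1, with 1730 FPKM in Pim1 knockout and 2292 FPKM in wild type (adjusted p = 0.0285 and 0.0301 in the authors' deposited table). Fau had 3539 FPKM in Pim1 knockout and 3978 FPKM in wild type and did not pass. Of 7 tested pseudogene rows 4 fell, against 6.73% of all tested genes, and all 7 were below 0 with a median of -0.58. Whether these rows hold reads of the parent genes was not tested.

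**Figure D4:**
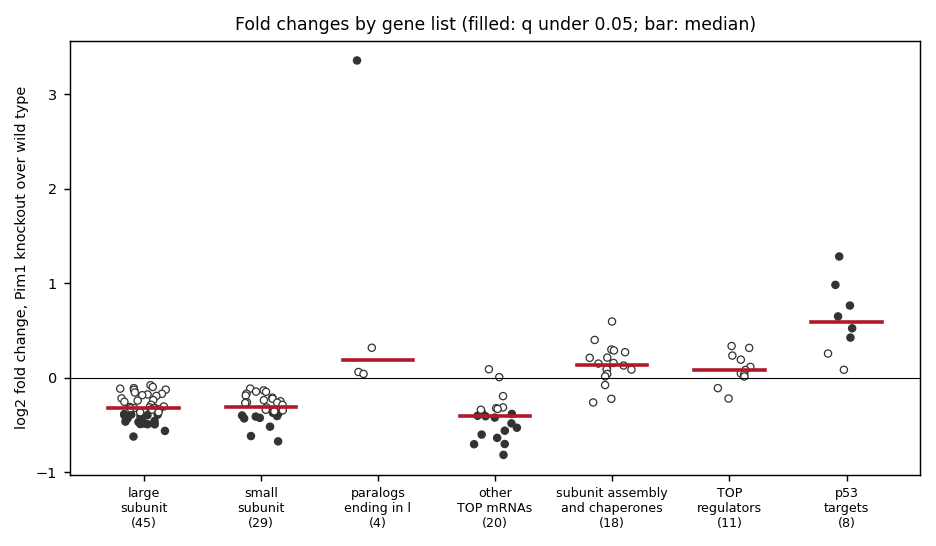
Log2 fold change, Pim1 knockout over wild type, by gene list. Members are shown by subunit (45 and 29, without paralogs ending in l), with the 4 members that are such paralogs apart. Also shown are 20 other TOP mRNAs, 18 factors of subunit assembly, 11 TOP regulators and 8 p53 targets. Each point is 1 gene, filled where the deposited q is under 0.05, with the list's median as a bar; the medians of the subunits and of other TOP mRNAs are below 0, and those of the other lists above it.

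Other mRNAs of the TOP class, listed from general knowledge of it, were lower as well. The search near RefSeq starts found a tract in 4 of the 14 with a promoter (28.6%), no more often than in all tested genes (31.7%), so the list does not rest on these letters. Of its 20 genes 13 fell and 0 rose, or 65.0% against 6.73% of all tested genes, with a median of -0.40. Eef1a1, the factor that brings tRNAs to the ribosome, had 1840 FPKM in Pim1 knockout and 2857 FPKM in wild type, a log2 fold change of -0.63 (error 0.27, adjusted p = 0.000831 in the authors' deposited table). Tpt1, the translationally controlled tumor protein, had 1948 FPKM in Pim1 knockout and 2953 FPKM in wild type (log2 fold change -0.60, adjusted p = 0.00156 in the authors' deposited table). Eef1b2, the exchange factor of Eef1a1, fell to 225.3 FPKM in Pim1 knockout, against 324.7 FPKM in wild type. The initiation factor Eif4b fell to 46.2 FPKM in Pim1 knockout, against 68.0 FPKM in wild type, and Eif3f, whose tract is printed above, to 207.7 FPKM, against 267.3 FPKM in wild type. Gas5 and Snhg5, spliced noncoding hosts of small nucleolar RNAs, fell to 16.6 and 10.1 FPKM in Pim1 knockout, against 27.0 and 16.5 FPKM in wild type. Not all followed: Eef1g had 333.9 FPKM in Pim1 knockout and 313.4 FPKM in wild type, and Eef1d had 86.0 FPKM in Pim1 knockout and 85.5 FPKM in wild type. With the test statistic taken as a normal deviate 0 of the 20 were called, and 7 were lower at an unadjusted p under 0.05, against 4.25% of all tested genes.

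Genes that build ribosomes or regulate TOP mRNAs had medians slightly above 0. Of 18 tested chaperones and assembly factors of the subunits 0 were called in either direction in the authors' deposited table, with a median of 0.14, and at an unadjusted p under 0.05 there were 0 lower and 3 higher. Of 11 tested genes of the mTOR pathway, Larp1 and Myc, 0 were called in the authors' deposited table, with a median of 0.08, and at an unadjusted p under 0.05 there were 0 lower and 2 higher. For both lists the shares of all tested genes at that level were 12.15% lower and 11.96% higher. The test statistic taken as a normal deviate gave 0 calls in both lists, before adjustment too. Larp1 had 4.47 FPKM in Pim1 knockout and 3.54 FPKM in wild type, Mtor had 2.58 FPKM in Pim1 knockout and 2.38 FPKM in wild type, and Myc, a transcription factor of ribosomal protein genes, had 29.5 FPKM in Pim1 knockout and 23.7 FPKM in wild type. These mRNA levels say nothing of the activity of the proteins.

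Targets of p53, listed because unassembled Rpl5 and Rpl11 are known to stabilise it, were higher: of 8 tested, 6 rose and 0 fell, against 6.79% of all tested genes that rose, with a median of 0.59. Cdkn1a, the inhibitor of cyclin-dependent kinases, had 392.2 FPKM in Pim1 knockout and 198.3 FPKM in wild type, a log2 fold change of 0.98 (error 0.23, adjusted p = 0.000831 in the authors' deposited table). It lies within 10 Mb of Pim1. Phlda3 rose to 29.96 FPKM in Pim1 knockout, against 12.3 FPKM in wild type, and the apoptosis gene Bax to 325.4 FPKM, against 226.2 FPKM in wild type. Sesn2 rose to 10.1 FPKM in Pim1 knockout, against 6.46 FPKM in wild type, Zmat3 to 4.02 FPKM, against 2.37 FPKM in wild type, and Ccng1 to 59.5 FPKM, against 44.3 FPKM in wild type. Mdm2 had 16.4 FPKM in Pim1 knockout and 15.5 FPKM in wild type. With the test statistic taken as a normal deviate 2 of the 8 were called higher, against 1.85% of all tested genes. Any link between these values and those of the ribosomal proteins was not tested.

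Markers of the cell types in the culture moved with the genotype too. Of all tested genes 6.73% fell and 6.79% rose. Among 12 tested neutrophil markers, 8 rose and 0 fell. Their summed levels were 9445 FPKM in Pim1 knockout and 2551 FPKM in wild type, most of it S100a8 and S100a9. The others that rose were Lcn2, Ltf, Ngp, Camp, Mmp9 and Csf3r. Retnlg, Il1f9, Cxcr2 and Mmp8 of the same list did not pass, with log2 fold changes of -0.37, -0.38, 0.05 and 0.06. The list thus did not change as a whole. Of 10 tested monocyte markers 6 rose and 0 fell, with summed levels of 1635 FPKM in Pim1 knockout and 936.3 FPKM in wild type. Csf1r, Cx3cr1 and Nr4a1 of this list were below 0 and did not pass, with log2 fold changes of -0.25, -0.75 and -0.55. Of 8 tested dendritic cell markers 3 fell (Itgax, H2-Aa and Cd74) and 1 rose (Ccr7). The summed levels of this list were 2904 FPKM in Pim1 knockout and 4075 FPKM in wild type, nearly all of it Cd74, H2-Aa and H2-Ab1. Flt3, Zbtb46, Xcr1 and Siglech were at trace levels and not tested. Of 9 tested macrophage markers 0 were called, with 1 lower and 2 higher at an unadjusted p under 0.05 in the authors' deposited table, and 0 of 12 proliferation genes were called, with 2 lower and 2 higher at that level. The test statistic taken as a normal deviate called 0 genes of either list. Of the progenitor markers 3 rose and 2 fell among 8 tested. The B cell genes Ms4a1 and Pax5 were listed at 0 in both genotypes. Cell types differ in their content of ribosomal protein mRNA, and the part of these marker changes in the lower ribosomal protein levels was not tested.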

How the data were processed

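RNA of 3 Pim1 knockout and 3 wild-type MDSC libraries was measured by Smart-seq2, per the labels' protocols. The authors deposited 1 table of the comparison with 1 pooled expression value per gene and genotype, read as FPKM because its columns are those of a Cuffdiff gene comparison; neither unit nor software stands in the header. Per the file headers, further columns hold the log2 fold change, the test statistic (a score), the p-value and the q-value of each gene. The submitters' processing notes name the build mm10. Aligner, annotation and scaling: not given in the sources used here. Deposited q-values are the deposited p-values adjusted by the Benjamini-Hochberg method over 11079 tested rows, within 5.28e-07. A further 13227 rows are marked as not tested and 6 as failed estimates, which were left out of sums. Since the values are no counts, the depth per library is unknown and no counting interval is printed.

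Log2 fold changes were recomputed from the pooled values, because a spreadsheet had spoiled part of that column, and differed over the members from the deposited ones by at most 1.04e-05. The error is the log2 fold change divided by the test statistic. Turned into normal deviates, the deposited p-values are 1.74 times the test statistic in the median, so the error is wider than the one behind them. Taking the test statistic as a normal deviate is the first alternative; the others change the threshold, the pseudocount, the scaling or the set of members. The adjustment was checked on simulated data. Values per library are not used here, so the planned fits across libraries were not run and p-values rest on the authors' own estimate of spread.

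The text names every member that was called, of each subunit the 4 most abundant and the 3 with the largest and smallest fold changes, all genes of the anemia and stalk lists, all members on the X chromosome or within 10 Mb of Pim1, all paralogs ending in l, and of other lists up to 6 called genes. Genes named beyond this rule, among them Rpl4, Rpl8, Rpl19, Rpl30, Rpsa, Fau, Rpl36al, Rpl7l1, Mdm2, Larp1, Mtor, Myc, Eef1g, Eef1d and Eif3f, were chosen after their values were seen. Values of some genes that the rule names are not reported here, though counts, medians and sums include them. Members, gene lists and this rule were chosen with earlier results of these data known. All 78 members lie on the same chromosome as in RefSeq, but the table's positions overlap the GRCm38 gene for 4 of them only, so no position from the table is printed. Promoters are those of RefSeq (GRCm38.p6), matched by symbol, and coding lengths those of GENCODE M21. Python 3.11.15, pandas 2.3.3, numpy 2.4.6, scipy 1.17.1 and matplotlib 3.10.9 were used.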

Additional observations from a re-analysis of the deposited data

How the results depend on the processing

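The counts of called genes depend on the error and threshold set against each change. With the test statistic taken as a normal deviate, 0 members were lower (0 in the large and 0 in the small subunit) and 0 higher, and 0 of the other TOP mRNAs and 0 ribosomal proteins under other names were lower, while 2 p53 targets were higher. Of all tested genes 1.47% were lower and 1.85% higher in this reading. At an adjusted p under 0.01, 10 members were lower (7 large, 3 small) and 0 higher, against 4.13% of all tested genes lower, with 7 other TOP mRNAs and 1 ribosomal protein under another name lower. With a change of at least 1.5-fold asked as well, 3 members were lower (1 large, 2 small), against 4.15% of all tested genes, with 5 other TOP mRNAs and 1 ribosomal protein under another name. The 1 higher member, Rpl39l, was lost (0) with a mean of at least 10 and without paralogs ending in l.

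Of 147 alternatives, 127 stayed within 1.5 times a count or within the members' median error, and 20 moved. A reversal was looked for only in medians and summed levels that changed by more than this error, and 0 were found. The main differences between the subunits are far smaller than the error, so staying within it says little about them. The log2 change of the large to small ratio of sums ran from -0.007 to 0.014, on both sides of 0. The median over members ran from -0.33 to -0.21 and the large minus small difference from -0.08 to -0.01. Scaling to the same sum moved the median of all tested genes to 0.08. Of the 74 members other than paralogs ending in l, 67 were below 0 after quantile normalization and 74 in the 5 other scalings and pseudocounts. No paired analysis was possible because the table pools the 3 libraries of each genotype; leaving out each replicate was not run for the same reason.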
